A study of Homo sapiens with 24 samples.

Results

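The αV integrin subunit, encoded by ITGAV, and the 5 β subunits that it can pair with, encoded by ITGB1, ITGB3, ITGB5, ITGB6 and ITGB8, were followed in 4 human lung cancer cell lines depleted of protein kinase C delta (PKCδ). The 6 genes were taken by symbol from the 18417 genes measured, without regard to their values, and each was represented by 1 transcript cluster, the group of array probes that reports on a gene. All 4 lines are non-small cell lung cancer (NSCLC) lines with mutant K-ras. H2009 and H441 are classed by the study as K-ras dependent, and A549 and H460 as K-ras independent. Each line stably carried, by lentiviral transduction and drug selection, either δ193, a short hairpin RNA (shRNA) against the coding sequence of PKCδ, or δscr, a scrambled shRNA with no intended target. Each of the 8 groups had 3 biological replicates, so that 24 arrays of total RNA were compared. The only PKCδ shRNA on the arrays was δ193. The arrays alone thus cannot tell an effect of this hairpin on other targets apart from depletion of PKCδ. For ITGAV and ITGB3 the study also used other PKCδ shRNAs and re-expressed PKCδ, as given below. Each class was represented by only 2 lines.

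Integrins are receptors of 1 α and 1 β chain that link the extracellular matrix to the cytoskeleton. The αV chain reaches the cell surface only in a pair, and the β chain sets much of what the pair binds and signals: αVβ3 and αVβ5 are best known for binding vitronectin, αVβ6 and αVβ8 for binding the latent form of TGFβ and freeing the active cytokine, and αVβ1 for binding fibronectin and latent TGFβ. The chains β3, β5, β6 and β8 find few or no other α partners, whereas β1 is shared by a large set of α chains. In the lung, αVβ6 is restricted to epithelium and is low there until injury or transformation. The arrays measured RNA and neither protein nor surface receptor, so that a pair is described below only by whether the RNA of both chains was seen. Apart from the arrays, the study measured ITGAV and ITGB3 RNA by quantitative PCR, with δ193 and further PKCδ shRNAs. It reported less ITGAV RNA with depletion in dependent lines, H2009 and H441 among them, and no consistent change in A549 or H460. For ITGB3 the reported pattern was similar. Re-expression of PKCδ in depleted H2009 cells raised both RNAs. Surface αVβ3, assayed by flow cytometry, was reported lower with depletion in H2009 and other dependent lines, and slightly lower in A549.

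The promoters of ITGAV, ITGB5 and ITGB6 are shown because these genes changed in different sets of lines, and because the promoter of ITGB6 differs from the others in composition. RefSeq lists start sites for 5 of the 6 genes, and each window holds 250 bases before and 50 after a start, written 5′ to 3′ on the strand of the gene with each CG dinucleotide in capitals. ITGB3 has no entry in the table used. For genes with more than 1 start the window with the most CG dinucleotides was taken, so that high counts are in part a result of that choice. The windows lie at chr2:186589806-186590105 (plus strand) for ITGAV, at chr3:124887316-124887615 (minus strand) for ITGB5 and at chr2:160200223-160200522 (minus strand) for ITGB6, on build GRCh38.p14.
ITGAV: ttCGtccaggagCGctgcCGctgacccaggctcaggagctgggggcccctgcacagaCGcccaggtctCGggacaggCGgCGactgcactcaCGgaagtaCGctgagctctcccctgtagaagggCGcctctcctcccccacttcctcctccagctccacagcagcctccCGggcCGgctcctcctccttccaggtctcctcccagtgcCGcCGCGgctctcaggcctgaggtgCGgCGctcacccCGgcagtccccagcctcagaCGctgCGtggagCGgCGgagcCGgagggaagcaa
ITGB5: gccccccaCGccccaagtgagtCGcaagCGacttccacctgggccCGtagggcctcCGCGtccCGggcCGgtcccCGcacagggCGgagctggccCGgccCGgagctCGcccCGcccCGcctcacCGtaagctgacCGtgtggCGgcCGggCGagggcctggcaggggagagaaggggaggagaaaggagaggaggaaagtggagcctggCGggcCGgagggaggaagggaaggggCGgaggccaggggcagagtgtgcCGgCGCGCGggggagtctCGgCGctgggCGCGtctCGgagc
ITGB6: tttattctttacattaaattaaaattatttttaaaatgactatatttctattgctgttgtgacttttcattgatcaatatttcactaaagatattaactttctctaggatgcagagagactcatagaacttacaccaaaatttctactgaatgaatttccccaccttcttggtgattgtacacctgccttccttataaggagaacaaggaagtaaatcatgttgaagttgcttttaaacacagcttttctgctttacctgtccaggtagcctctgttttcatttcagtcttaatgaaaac

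The ITGAV window holds 23 CG dinucleotides and is 70.7% G or C, and the ITGB5 window holds 32 and is 75.7% G or C. The only ITGB6 window listed holds 0 CG dinucleotides and is 31.7% G or C. Only 4.0% of the 35116 windows listed hold none, and the median window has 14 and is 58.7% G or C. The chosen windows of ITGB1 and ITGB8 hold 39 and 28 CG dinucleotides and are 78.3% and 71.7% G or C. On both strands, the GC box, with the letters GGGCGG, occurred 3 times each in the windows of ITGB1 and ITGB5 and 2 times in that of ITGB8. The windows of ITGAV and ITGB6 lack it, and 45% of all windows hold it. An AP-1 site of the form TGANTCA, which 7.7% of windows hold, and a TATA box written as TATAAA, which 11.5% hold, occurred in none of the 5 chosen windows. For TATAAA this depends on the choice by CG dinucleotides. A second listed window of ITGB1, with 4 of them, holds TATAAA 3 times. These matches describe letters only.

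The depletion was checked on PRKCD, the gene for PKCδ. Its log2 array values were 5.96, 5.95 and 5.86 on δ193 arrays and 8.20, 8.21 and 8.11 on δscr arrays in H2009, and 5.69, 4.68 and 6.00 on δ193 arrays and 8.11, 7.71 and 7.76 on δscr arrays in H441. In A549 the δ193 arrays read 5.61, 5.81 and 5.71 and the δscr arrays 6.70, 7.03 and 7.19, and in H460 6.42, 6.28 and 6.16 on δ193 arrays stood against 8.27, 8.34 and 8.35 on δscr arrays. The change was thus largest in H441, at -2.40 on the log2 scale, and smallest in A549, at -1.26, with no overlap in any line. The H441 arrays spread more than the others. The lowest correlation between replicate arrays was 0.982 in the H441 δ193 group and 0.992 in the other groups, and the residual variance of H441 arrays was 2.44 times that of the other lines by their median. Epithelial markers (EPCAM, KRT8, KRT18, KRT19 and CDH1) stood above the level of olfactory receptor genes described below in all 8 groups, as did the mesenchymal markers VIM, CDH2 and COL1A1. Of the immune markers, PTPRC and CD3E did so in none and CD68, a lysosomal protein of macrophages, in all 8, and of the endothelial markers CDH5 did so in none and PECAM1 in 1, H441 with δscr. Of the lung markers, SFTPC did so in all 8 groups, NKX2-1 in 4 and SFTPB in 2. Because bulk RNA was measured, fewer cells with a transcript and less of it per cell cannot be told apart.

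In the control cells, those with δscr, all 6 genes differed in level among the lines (F test over the 4 groups in limma, largest adjusted p = 0.00385, for ITGB8). Values are log2 intensities, and lines are compared within a gene only. ITGAV itself was highest in A549, with 9.41, 9.33 and 9.36 on the 3 arrays, and lowest in H460, with 7.80, 7.86 and 8.08. The means were 9.37 ± 0.04 (SD, n = 3) in A549, 9.16 ± 0.10 in H2009, 8.54 ± 0.05 in H441 and 7.91 ± 0.15 in H460. A549 and H2009 were neighbours that did not differ beyond their spread (H2009 minus A549, -0.20, adjusted p = 0.0525, limma with Benjamini-Hochberg adjustment over all genes), whereas each further step down was called. Here and below a gene was called where its adjusted p was under 0.05 and the log2 difference at least 0.32. ITGB1, the shared partner of many α chains, ran from 10.67 ± 0.03 in A549 through 9.69 ± 0.18 in H441 and 9.25 ± 0.07 in H2009 to 8.89 ± 0.05 in H460, and all 4 lines differed from each other.

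ITGB5 followed the order A549 (9.90 ± 0.02), H441 (9.74 ± 0.06), H460 (9.33 ± 0.07) and H2009 (8.78 ± 0.07), in which only A549 and H441 did not differ (H441 minus A549, -0.16, 95% confidence interval -0.36 to 0.04, adjusted p = 0.178). ITGB3, which in other settings marks endothelium, platelets and osteoclasts, was highest in H441 (5.95 ± 0.24) and H2009 (5.68 ± 0.07), then H460 (5.43 ± 0.07) and A549 (5.06 ± 0.20). No neighbours in this order differed beyond their spread (adjusted p of 0.177, 0.273 and 0.0843 down the order), although H441 was above H460 and A549, and H2009 above A549. H441 was no longer above H460 when its δscr replicate 2 was left out (difference 0.41, adjusted p = 0.071).

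ITGB6 varied most between the lines. Its δscr arrays read 7.10, 7.15 and 7.10 in H2009 and 6.53, 5.92 and 5.76 in A549, against 4.04, 3.68 and 3.72 in H441 and 3.71, 3.46 and 3.51 in H460. H2009 exceeded A549 by 1.05 (standard error 0.17, adjusted p = 1.11e-05) and H441 by 3.30 (adjusted p = 5.45e-14), while H441 and H460 did not differ beyond their spread (0.25, 95% confidence interval -0.09 to 0.60, adjusted p = 0.207). High and low lines were found in both K-ras classes: 1 dependent and 1 independent line had ITGB6 RNA well above the others. ITGB8 was lowest in H2009 (3.71 ± 0.05), and the means of A549 (4.27 ± 0.27), H460 (4.12 ± 0.18) and H441 (4.12 ± 0.13) did not differ beyond their spread. H2009 was below each of them, but not below H441 once δscr replicate 2 of H441 was left out (-0.33, adjusted p = 0.0636), nor below H460 without δscr replicate 3 of H460 (-0.33, adjusted p = 0.0885).

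Over the 6 genes and 6 pairs of δscr lines, 27 of 36 differences were called. Of the 9 not called, 3 were of ITGB3 and 3 of ITGB8. By pair, 5 of the 6 members were called between H2009 and H441, where 49.3% of all genes were, 5 between H2009 and A549 (41.4%) and 5 between H2009 and H460 (35.5%). Between H441 and A549 4 were called (48.4%), as between H441 and H460 (45.4%) and between A549 and H460 (38.9%). The pairs share groups, so these counts are not independent of each other.

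**Figure D1:**
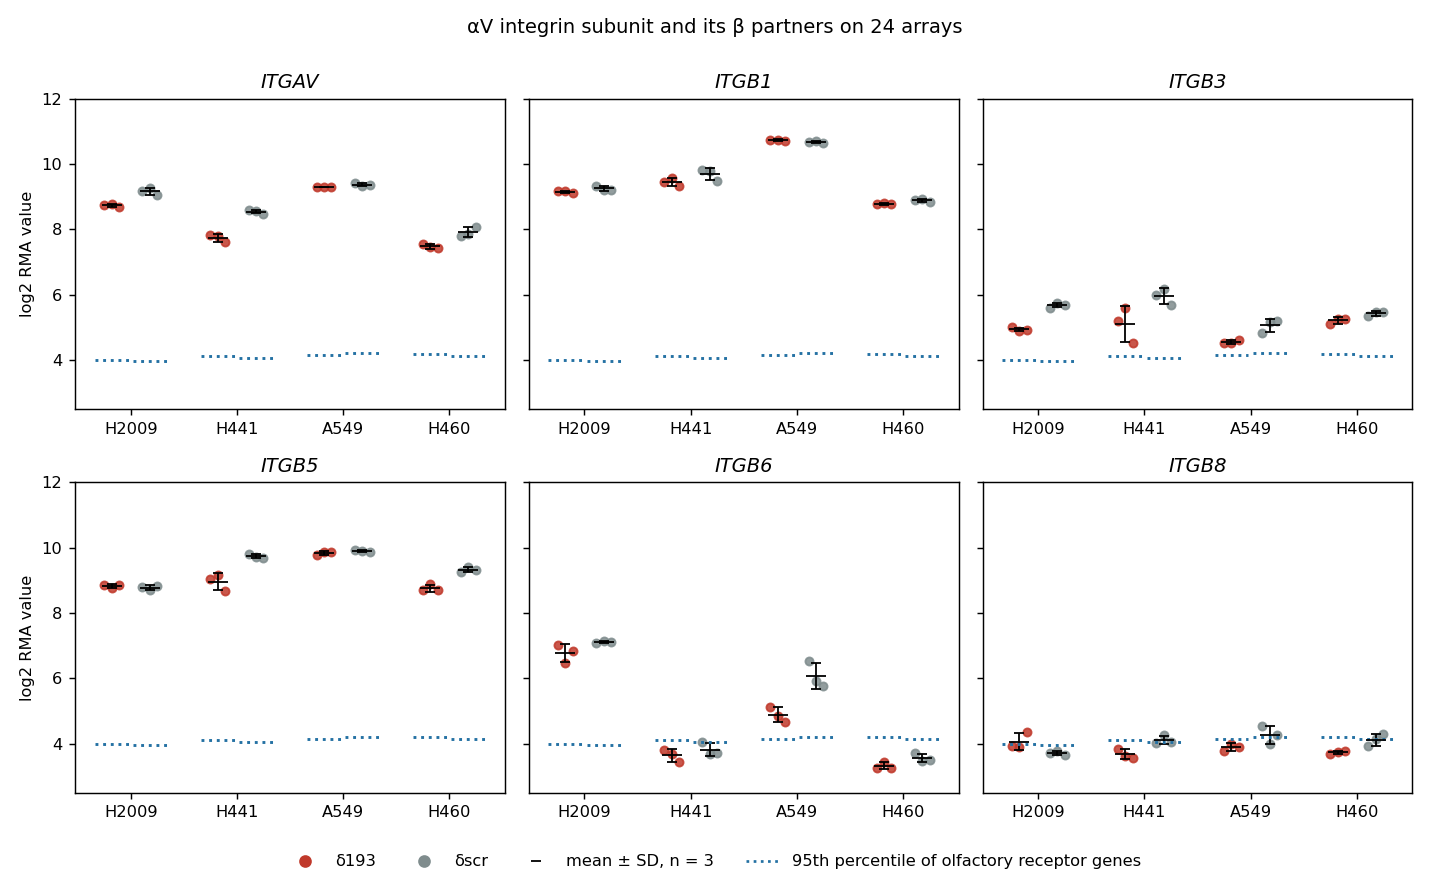
Log2 array values of ITGAV and its 5 β partners. Each point is 1 array of the line on the horizontal axis, red for δ193 and grey for δscr, while bars show mean and SD over the 3 arrays of a group and dotted lines the 95th percentile of olfactory receptor genes in each group. ITGB6 lies above that line only in H2009 and A549, ITGB8 lies near it throughout, and the δ193 points of ITGAV lie closest to the δscr points in A549, where the change was -0.07.

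The values used here come without a background measure, so the 360 olfactory receptor genes, which lung cells are not known to use, served as a rough level of silent genes. Their 95th percentile lay between 3.95 and 4.21 in the 8 groups. It is no detection call, because probe sets differ in affinity. Group means of ITGAV, ITGB1, ITGB3 and ITGB5 exceeded it in 8 of 8 groups, as did all 24 single arrays of each. ITGB6 exceeded it in 4 of 8 groups, those of H2009 and A549 with either shRNA, and its group means of 3.32 to 3.81 in H441 and H460 lay below it. ITGB8 exceeded it in 3 groups, H2009 with δ193 and H441 and A549 with δscr, and by less than 0.1 in each. Its 24 arrays included 7 above the percentile, and against the 99th percentile (4.51 to 4.78) no group passed.

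By RNA, then, both chains of αVβ1, αVβ3 and αVβ5 were seen above this rough level in all 4 lines with either shRNA, and both chains of αVβ6 only in H2009 and A549. Of the first 3 pairs αVβ3 is the least certain. The mean of ITGB3 over all arrays, 5.24, exceeded that of 42.4% of genes, while ITGB1 exceeded 94.8% and ITGB5 93.1%. For αVβ3, 1 group fell between the limits: A549 with δ193, at 4.56 ± 0.06, was above the 95th percentile of 4.16 and below the 99th of 4.74. Depletion of PKCδ moved no line from one side of the 95th percentile to the other for ITGAV, ITGB1, ITGB3, ITGB5 or ITGB6. For ITGB8, near this level in every group, H441 and A549 lay below it with δ193 and above it with δscr, while H2009 lay above it with δ193 and below it with δscr.

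ITGAV, the chain that all these receptors share, was lower with δ193 in 3 of the 4 lines. In H441 the δ193 arrays read 7.82, 7.79 and 7.60 and the δscr arrays 8.58, 8.55 and 8.48. This was the deepest fall, by 0.80 (standard error 0.08, 1.74 fold lower, adjusted p = 4.58e-07). In H2009 the values were 8.74, 8.77 and 8.69 with δ193 and 9.17, 9.26 and 9.06 with δscr, a change of -0.43 (adjusted p = 0.00238). In H460 they were 7.55, 7.46 and 7.42 with δ193 and 7.80, 7.86 and 8.08 with δscr, a change of -0.44 (adjusted p = 0.00171). Unlike this call, the study's quantitative PCR showed no consistent ITGAV change in H460. None of these 3 lines had overlapping groups. In A549, where ITGAV began highest, it read 9.31, 9.29 and 9.29 with δ193 and 9.41, 9.33 and 9.36 with δscr. The groups did not overlap, but the change of -0.07 was not called (95% confidence interval -0.24 to 0.11, adjusted p = 0.846). A549 was also the line in which PRKCD fell least and began lowest, and the part of this in the ITGAV value was not tested.

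ITGB3, like ITGAV, was lower on every δ193 array than on every δscr array of the same line, in all 4 lines. That holds for 0.695% of all genes, and was noticed after the values were seen. In H2009 the δ193 arrays read 5.0, 4.90 and 4.91 and the δscr arrays 5.61, 5.74 and 5.69 (change -0.74, standard error 0.17, adjusted p = 0.00876). In H441 values of 5.21, 5.58 and 4.51 with δ193 stood against 5.99, 6.18 and 5.69 with δscr (change -0.85, adjusted p = 0.00102). The H441 replicates ranged over more than 1 log2 unit with δ193. The change was -0.56 without δ193 replicate 3 (adjusted p = 0.00352) and -1.09 without δ193 replicate 2 (adjusted p = 3.64e-05), and the call was lost when H441 was fitted alone (adjusted p = 0.105). In A549 ITGB3 read 4.51, 4.53 and 4.62 with δ193 and 4.83, 5.17 and 5.18 with δscr. The change of -0.50 missed the threshold (adjusted p = 0.0966) but passed it without δ193 replicate 2 of H441 (adjusted p = 0.0282) or without its δ193 replicate 3 (adjusted p = 0.00756), since all groups share 1 estimate of spread. In H460 the values were 5.10, 5.27 and 5.26 with δ193 and 5.35, 5.48 and 5.45 with δscr, and the change of -0.22 was not called (95% confidence interval -0.57 to 0.13, adjusted p = 0.594).

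ITGB5, the other vitronectin partner, fell in 1 line of each class. In H441 it read 9.05, 9.18 and 8.67 with δ193 and 9.81, 9.72 and 9.69 with δscr, a change of -0.77 (standard error 0.10, adjusted p = 6.93e-06). In H460 it read 8.71, 8.88 and 8.69 with δ193 and 9.27, 9.41 and 9.32 with δscr, a change of -0.57 (adjusted p = 0.00054). The groups did not overlap in either line. In H2009 the values of 8.85, 8.77 and 8.86 with δ193 overlapped those of 8.79, 8.71 and 8.84 with δscr (change 0.05, 95% confidence interval -0.15 to 0.25). In A549, 9.77, 9.86 and 9.88 with δ193 stood against 9.92, 9.91 and 9.88 with δscr (change -0.06, 95% confidence interval -0.27 to 0.14). ITGAV and ITGB5 thus fell together in H441 and H460, ITGAV fell without a change in ITGB5 being detected in H2009, and neither was called in A549.

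ITGB6, which provides the epithelial receptor for latent TGFβ, was called in A549 alone. Its values there were 5.13, 4.86 and 4.67 with δ193 and 6.53, 5.92 and 5.76 with δscr, with no overlap. The change of -1.18 (standard error 0.17, 2.27 fold lower, adjusted p = 6.51e-05) was the largest of any member in any line, and δscr replicate 1, at 6.53, was the highest of these arrays. In H2009, where ITGB6 was most abundant, it read 7.02, 6.48 and 6.83 with δ193 and 7.10, 7.15 and 7.10 with δscr. The groups did not overlap, but the change of -0.34 was not called (95% confidence interval -0.68 to 0.00, adjusted p = 0.311). In H441 ITGB6 read 3.81, 3.70 and 3.43 with δ193 and 4.04, 3.68 and 3.72 with δscr, and in H460 3.26, 3.44 and 3.27 with δ193 and 3.71, 3.46 and 3.51 with δscr. Both lines lay below the olfactory receptor level, and the changes of -0.17 and -0.23 were not called (adjusted p of 0.554 and 0.538).

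ITGB8, the partner in a receptor that presents latent TGFβ without linking to the actin cytoskeleton in the usual way, stayed near the silent level. Its one call was in H441, where it read 3.85, 3.63 and 3.57 with δ193 and 4.03, 4.27 and 4.05 with δscr (change -0.43, adjusted p = 0.0254). The call was lost without δ193 replicate 2 (-0.40, adjusted p = 0.0636), δ193 replicate 3 (-0.38, adjusted p = 0.0783) or δscr replicate 2 (-0.36, adjusted p = 0.11) of that line. It was also lost with H441 fitted alone (adjusted p = 0.15). In A549 it read 3.77, 4.0 and 3.91 with δ193 and 4.54, 4.0 and 4.25 with δscr, and in H460 3.69, 3.75 and 3.77 with δ193 and 3.92, 4.15 and 4.29 with δscr. The changes of -0.37 in A549 and -0.39 in H460 were not called (adjusted p of 0.121 and 0.0957), and ITGB8 in A549 was called without δscr replicate 2 of A549 (-0.50, adjusted p = 0.0403). In H2009 the arrays read 3.94, 3.89 and 4.36 with δ193 and 3.71, 3.76 and 3.66 with δscr. This was the single member to lie higher with δ193 in a line with no overlap and a change over 0.1, and at 0.36 it was not called (adjusted p = 0.14). Without δ193 replicate 3, at 4.36, the change was 0.21 (adjusted p = 0.548).

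ITGB1 was called in no line. Its largest change was in H441, where 9.44, 9.57 and 9.34 with δ193 stood against 9.81, 9.79 and 9.48 with δscr (change -0.24, adjusted p = 0.0495), a fold of 1.18 that lies below the size needed for a call. Without δscr replicate 3 of H441 the change was -0.35 and was called (adjusted p = 0.00452). In H2009 it read 9.17, 9.18 and 9.11 with δ193 and 9.34, 9.22 and 9.20 with δscr. In A549, where ITGB1 was highest, it read 10.75, 10.74 and 10.71 with δ193 and 10.68, 10.69 and 10.64 with δscr, and in H460 8.77, 8.82 and 8.77 with δ193 and 8.91, 8.92 and 8.83 with δscr. The changes in these lines were -0.10 in H2009, 0.06 in A549 and -0.10 in H460, with 95% confidence intervals that reached no further than -0.28 and 0.24.

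Counted by line, 2 of 6 members were called lower in H2009 (ITGAV and ITGB3), where 2.25% of all genes were. In H441 4 were (ITGAV, ITGB3, ITGB5 and ITGB8), against 7.22% of genes. In A549 it was 1 (ITGB6), against 2.58%, and in H460 2 (ITGAV and ITGB5), against 3.44%. No member was called higher, where 7.09% of all genes were in H441, 2.66% in H2009, 2.01% in H460 and 2.05% in A549, although with array weights, added after the values were seen, ITGB8 was called higher in H2009 (0.43, adjusted p = 0.0284). The δ193 arrays lay wholly below the δscr arrays for 6 members in H460 (18.1% of all genes), and for 4 each in H441 (10.6%), H2009 (12.1%) and A549 (11.7%). The median change of the 6 members was -0.60 in H441 and -0.22 in H2009, and -0.31 in H460 and -0.22 in A549, while that of all genes lay between 0.00 and 0.01. In H441 the mean level of the 5 epithelial markers was 8.51 with δ193 and 9.03 with δscr, and its part in the fall of the members there was not tested. In the other lines that mean was 11.14 with δ193 and 11.29 with δscr in H2009, 8.77 and 8.71 in A549, and 8.25 and 8.16 in H460.

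**Figure D2:**
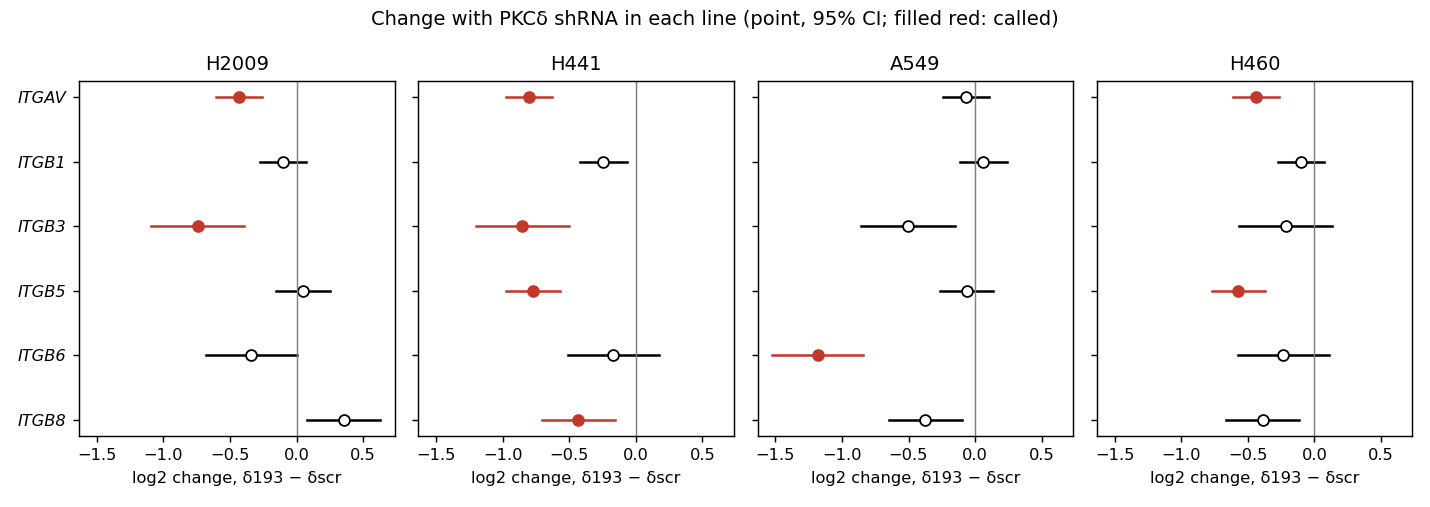
Change with δ193 in each line. Points give δ193 minus δscr on the log2 scale with the 95% confidence interval from limma, and filled red points were called. The called subunits differ between the lines: ITGB6 in A549 (-1.18) and ITGAV and ITGB5 in H460 (-0.44 and -0.57), for example.

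Averaged over the 4 lines, a comparison added after the values were seen, ITGAV changed by -0.43 (standard error 0.04, adjusted p = 1.19e-07), ITGB3 by -0.58 (adjusted p = 3.26e-05), ITGB5 by -0.34 (adjusted p = 2.63e-05) and ITGB6 by -0.48 (adjusted p = 0.000219). These 4 members were called lower, against 2.14% of all genes. ITGB8 (-0.21, adjusted p = 0.0324) did not reach the fold, and ITGB1 (-0.10) did not pass. Without δ193 replicate 3 of H441 the mean change of ITGB5 was -0.30 and no longer reached the fold.

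The study set the dependent lines against the independent ones, and for ITGAV this difference passed the test. The mean change was -0.62 in H2009 and H441 and -0.25 in A549 and H460, a difference of -0.36 (95% confidence interval -0.54 to -0.19, adjusted p = 0.0117), and 1 of the 6 members passed where 4.99% of all genes did. It was not shared by every pair of lines. ITGAV changed about equally in H2009 and H460, 1 line of each class (difference 0.01, 95% confidence interval -0.24 to 0.25, adjusted p = 0.992). Of the 4 pairs of a dependent and an independent line, only H441 against A549 passed (-0.73, adjusted p = 0.000253). H2009 minus A549 was -0.37 (adjusted p = 0.0971) and H441 minus H460 was -0.36 (adjusted p = 0.0782). Under other settings or with 1 array left out, the first of these passed 3 times (adjusted p of 0.0244 to 0.0495) and the second 3 times (adjusted p of 0.0383 to 0.0492). They did so without δ193 replicate 3 of H441 (-0.37, adjusted p = 0.049) and without δscr replicate 3 of H460 (-0.45, adjusted p = 0.0436). Lines of the same class differed by as much, H2009 minus H441 by 0.37 (adjusted p = 0.0606) and A549 minus H460 by 0.37 (adjusted p = 0.0787). H2009 minus H441 passed under 3 of 9 other settings and in 4 of 24 fits with 1 array left out (lowest adjusted p = 0.0279). A549 minus H460 passed under 2 of 9 and in 1 of 24 (lowest adjusted p = 0.00954). In the test of the classes the arrays, not the lines, are the replicates.

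For the β chains the class difference passed in none. It was -0.44 for ITGB3 (mean change of -0.80 in the dependent and -0.36 in the independent lines, adjusted p = 0.155), and this passed without δ193 replicate 2 of H441 (-0.56, adjusted p = 0.0178). It ran the other way for ITGB6, at 0.45 (-0.25 in the dependent and -0.71 in the independent lines, adjusted p = 0.126), and for ITGB8, at 0.34 (-0.04 in the dependent and -0.38 in the independent lines, adjusted p = 0.154). With array weights the difference passed for all 3 genes. For ITGB5 the 2 classes had nearly the same mean change, -0.36 in the dependent and -0.32 in the independent lines (difference -0.05, 95% confidence interval -0.25 to 0.16, adjusted p = 0.875), although its change differed strongly between lines of the same class. For ITGB1 the difference was -0.15 (adjusted p = 0.359).

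When the change was allowed to differ freely among the 4 lines, it did so for 4 of the 6 members, ITGAV (adjusted p = 0.00127), ITGB5 (adjusted p = 0.000333), ITGB6 (adjusted p = 0.0102) and ITGB8 (adjusted p = 0.0102), where 14.1% of all genes passed. ITGB1 (adjusted p = 0.316) and ITGB3 (adjusted p = 0.215) did not pass. Between H2009 and H441, both dependent, ITGB5 (difference 0.82, adjusted p = 0.000521) and ITGB8 (0.79, adjusted p = 0.0107) differed, 2 members where 7.12% of genes did. Between A549 and H460, both independent, ITGB5 (0.51, adjusted p = 0.033) and ITGB6 (-0.95, adjusted p = 0.017) differed, where 4.63% of genes did.

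Across the classes, ITGB6 (0.84, adjusted p = 0.045) and ITGB8 (0.73, adjusted p = 0.0281) differed between H2009 and A549, where 3.51% of genes did, and ITGB5 (0.62, adjusted p = 0.00911) and ITGB8 (0.74, adjusted p = 0.0215) between H2009 and H460 (4.21%). ITGAV, ITGB5 (-0.71, adjusted p = 0.00165) and ITGB6 (1.01, adjusted p = 0.00673) differed between H441 and A549 (9.4%), and no member did between H441 and H460 (4.83%). Since ITGB6 lay below the olfactory receptor level with either shRNA in H441 and H460, little fall could be measured there, and its differences from A549 say no more than that. Several of these lie near the threshold. With 1 array left out, the ITGB6 difference between H2009 and A549 was lost in 14 of 24 fits and that between A549 and H460 in 4. The ITGB5 difference between A549 and H460 was lost in 9 of 24, and the ITGB8 differences of H2009 from A549 and H460 in 6 and 5. Examples follow. The ITGB6 difference between H2009 and A549 was 0.61 (adjusted p = 0.129) without δscr replicate 1 of A549, the ITGB6 difference between A549 and H460 was -0.72 (adjusted p = 0.0535) without the same array, the ITGB5 difference between A549 and H460 was 0.47 (adjusted p = 0.0995) without δscr replicate 2 of H460, and the ITGB8 differences of H2009 from A549 and H460 were 0.58 (adjusted p = 0.0961) and 0.59 (adjusted p = 0.0752) without δ193 replicate 3 of H2009.

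**Figure D3:**
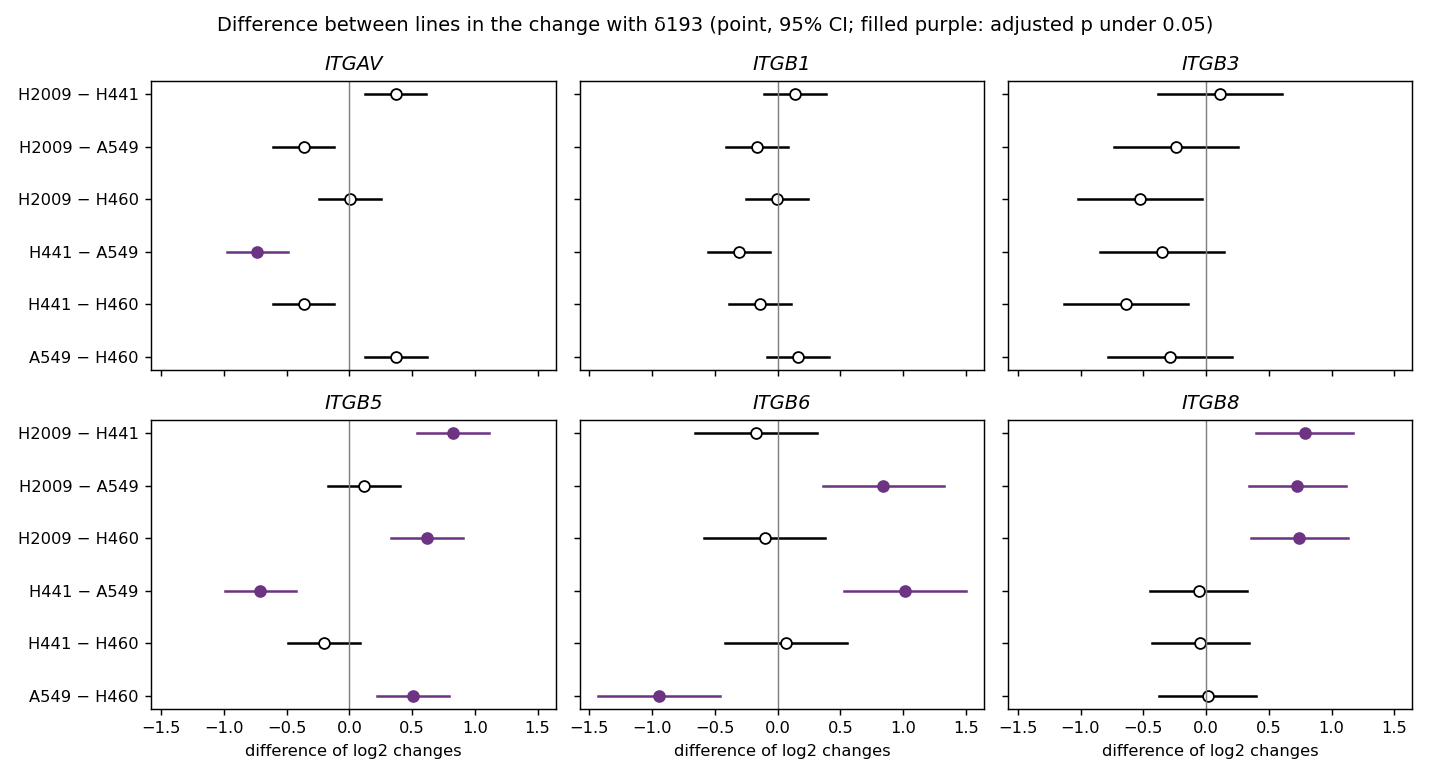
Differences between lines in the change with δ193. Each row subtracts the change in the line named second from that in the line named first, points give the difference on the log2 scale with its 95% confidence interval, and filled purple points have an adjusted p under 0.05. ITGAV changed alike in H2009 and H460 (0.01) and unlike in H441 and A549 (-0.73), and the intervals of ITGB1 and ITGB3 are unfilled for all pairs.

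The same arrays show how the 6 subunits moved together, given here as a description with no test, since the 24 arrays share 4 lines and 2 shRNAs. With the mean of each line subtracted, so that mainly the shRNA and replicate spread remain, ITGAV correlated with ITGB5 at 0.82, with ITGB3 at 0.79, with ITGB1 at 0.71, with ITGB8 at 0.44 and with ITGB6 at 0.33 (Pearson, n = 24 arrays). In the values as deposited, where the differences between lines dominate, the order was another: ITGAV correlated with ITGB6 at 0.77 and with ITGB3 at -0.15. With PRKCD, again with line means subtracted, the correlation was 0.88 for ITGAV, 0.72 for ITGB3, 0.65 for ITGB5, 0.51 for ITGB1, 0.48 for ITGB6 and 0.36 for ITGB8. PRKCD is the target of δ193 and separated the 2 shRNAs in every line. Its correlations therefore mainly restate the changes with δ193 given above.

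**Figure D4:**
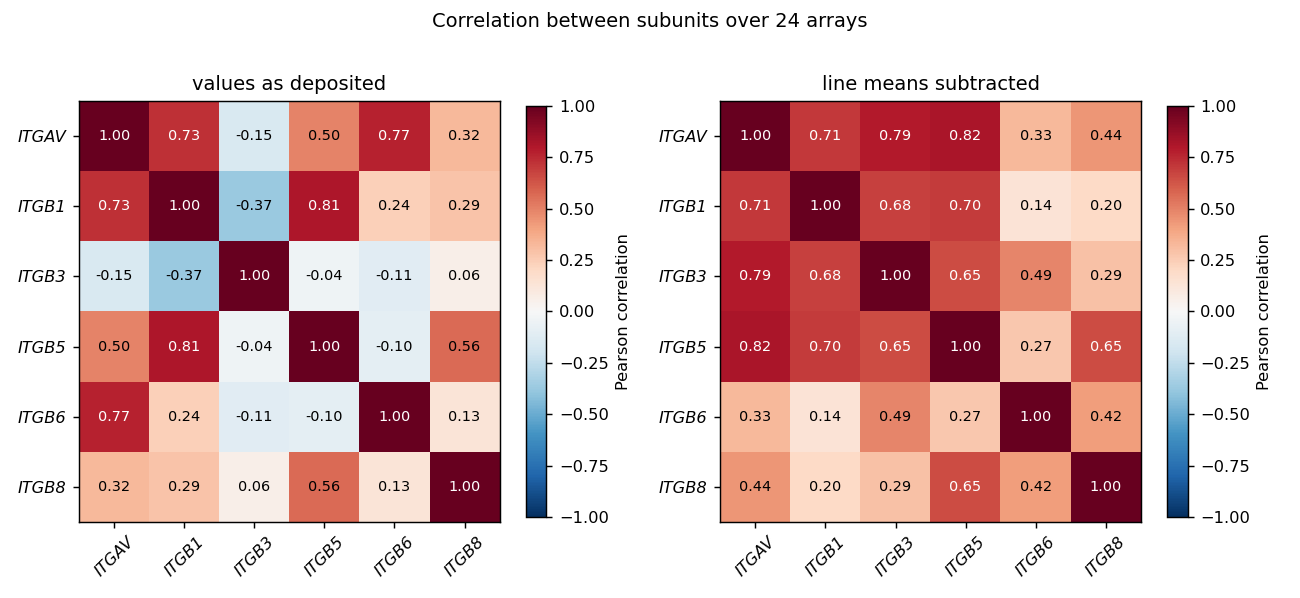
Pearson correlation between the 6 subunits over 24 arrays, for values as deposited (left) and after subtraction of each line's mean (right). The correlation of ITGAV with ITGB3 is -0.15 on the left and 0.79 on the right, and that with ITGB6 is 0.77 on the left and 0.33 on the right.

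The genes whose values ran most like those of ITGAV over the 24 arrays as deposited were TBC1D9 (Pearson r of 0.96), CD59 (0.96), an inhibitor of complement lysis, and SMAD3 (0.95), a carrier of TGFβ signals. With line means subtracted they were ALDH1A1 (0.95), a retinal dehydrogenase, TEAD1 (0.94), the DNA-binding partner of YAP, and MET (0.94), the receptor of hepatocyte growth factor. For ITGB3 the nearest as deposited were RABGAP1L (0.86), SV2A (0.82) and ADSS1 (0.78), and with line means subtracted SMAD3 (0.93), ITGA2 (0.92) and SLC49A4 (0.90). For ITGB5 they were ST3GAL5 (0.97), a sialyltransferase, ABCC3 (0.97) and PLA2R1 (0.94) as deposited, and FKBP10 (0.96), a collagen chaperone, TNFAIP2 (0.95) and ST3GAL5 (0.95) with line means subtracted.

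For ITGB6 they were MEIOC (0.99), ELOVL7 (0.98) and RAB8B (0.97) as deposited, which follows the 2 high lines, and CCDC80 (0.89), DRAM1 (0.89) and CASK (0.87) with line means subtracted. For ITGB1 they were TNFRSF10B (0.98), a receptor of the death ligand TRAIL, BCAM (0.98), a laminin receptor, and SOCS6 (0.98) as deposited, and ADSS1 (0.88), NCSTN (0.85), a subunit of γ-secretase, and GNPTG (0.85) with line means subtracted. ITGB8 had the weakest likeness, with PCMTD1 (0.71), TMEM133 (0.70) and GREM1 (0.66), a BMP antagonist, as deposited and ZNF219 (0.86), CLMN (0.84) and TMEM133 (0.81) with line means subtracted.

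The α chains that compete with αV for β1 or β3 are the other side of these pairings. Of 12 such genes 11 were measured. In H2009 1 was called lower and 1 higher (2.25% and 2.66% of all genes), in H441 3 were called lower and 0 higher (7.22% and 7.09%), and none was called in A549 (2.58% and 2.05%) or H460 (3.44% and 2.01%). ITGA2, the collagen-binding α2 chain, was lower in both dependent lines, at 8.01 with δ193 and 9.03 with δscr in H2009 (adjusted p = 0.00604) and at 7.48 with δ193 and 8.50 with δscr in H441 (adjusted p = 0.00213). In H441 the laminin-binding chains ITGA3 (-1.16, adjusted p = 5.82e-05) and ITGA6 (-0.73, adjusted p = 2.53e-05) were lower as well. ITGA4, whose chain binds VCAM-1 and fibronectin, was higher in H2009 (0.57, adjusted p = 0.00719). The median change of the 11 was -0.14 in H441 and -0.07 in H2009, and 0.10 in H460 and -0.04 in A549. Of the 3 β chains that do not pair with αV, ITGB4 (-0.99, adjusted p = 0.000393), of hemidesmosomes, and the leukocyte chain ITGB2 (-0.38, adjusted p = 0.0188) were lower in H441, and none was called in the other lines.

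Among 20 genes for ligands of αV integrins, 4 were called lower and 3 higher in H441 (7.22% and 7.09% of all genes), 1 lower and 2 higher in H2009 (2.25% and 2.66%) as in A549 (2.58% and 2.05%), and 0 lower and 4 higher in H460 (3.44% and 2.01%). VTN, which encodes vitronectin, the classic ligand of αVβ3 and αVβ5, was lower in H441, at 6.63 with δ193 and 8.72 with δscr (adjusted p = 1.87e-10), and was not called in the other lines. FN1, for fibronectin, was lower there too (-1.27, adjusted p = 0.000571). TNC, for tenascin-C, was higher in H441 (0.96, adjusted p = 0.000544) and in H460, where it stood at 7.66 with δ193 and 5.35 with δscr (adjusted p = 7.54e-09). FBN1, for fibrillin-1, went opposite ways, lower in H441 (-0.80, adjusted p = 0.00014) and higher in H460 (0.87, adjusted p = 0.000112), and CCN1 was higher in H460 (0.83, adjusted p = 0.0231).

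In A549, NPNT, for nephronectin (0.85, adjusted p = 0.00108), and SPP1, for osteopontin (0.67, adjusted p = 8.52e-07), were higher and FGB, for the fibrinogen β chain (-0.64, adjusted p = 0.015), was lower. In H2009, SPP1 (0.33, adjusted p = 0.00471) and TGFB3 (0.52, adjusted p = 0.00585) were higher, and LTBP3, a carrier of latent TGFβ (-0.47, adjusted p = 0.000697), was lower, as it was in H441 (-0.51, adjusted p = 0.000103). The median change of the 20 was -0.09 in H441 and 0.03 in H2009, and 0.09 in both H460 and A549.

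Of 16 symbols listed for proteins that bind or activate β tails, 14 were measured. Of these, 2 were called lower and 1 higher in H441 (7.22% and 7.09% of all genes) as in H460 (3.44% and 2.01%). In H2009 2 were lower and 2 higher (2.25% and 2.66%), and in A549 3 lower and 0 higher (2.58% and 2.05%). FERMT2 and FERMT3, the genes of kindlin-2 and the blood cell kindlin-3, changed in opposite directions in 3 lines. FERMT2 was lower in every line, most in A549 (-1.05), then H441 (-0.83), H460 (-0.73) and H2009 (-0.57). FERMT3 was higher in H2009 (0.81, adjusted p = 7.32e-05), H441 (0.67, adjusted p = 0.000213) and H460 (0.57, adjusted p = 0.00224), whereas in A549 the change was -0.21 (adjusted p = 0.41). The remaining genes named were called in 1 or 2 lines. RAP1A, a small GTPase of integrin activation, was lower in H2009 (-0.50, adjusted p = 0.00346). The kinase gene SRC was lower in H441 (-0.43, adjusted p = 0.00332) and higher in H2009 (0.33, adjusted p = 0.0461). TLN2, for talin-2, was lower in A549 (-0.56, adjusted p = 0.000377) and PTK2, for focal adhesion kinase, in H460 (-0.36, adjusted p = 0.00704). APBB1IP, for the RAP1 effector RIAM, was called lower in A549 (adjusted p = 0.00224), but its means of 3.26 with δ193 and 3.73 with δscr lay below the 95th percentile of olfactory receptor genes, so that no size is given for its change. The median change of the 14 was -0.06 in H441 and 0.00 in H2009, and -0.09 in H460 and -0.04 in A549.

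Genes that TGFβ induces were followed because αVβ6, αVβ8 and αVβ1 free that cytokine. Of 9 listed 8 were measured. In A549, where ITGB6 fell, PMEPA1, a feedback inhibitor of the pathway, was lower, at 8.68 with δ193 and 9.50 with δscr (adjusted p = 0.000796), and was the only one called. TGFBI, a matrix protein named for its induction, was lower in H2009 (-0.45, adjusted p = 0.0319) and H441 (-0.42, adjusted p = 0.02) and higher in H460 (0.53, adjusted p = 0.00922). It was the only one called in each of these lines. The shares of all genes called are those given above for each line. The median change of the 8 was -0.14 in H441 and -0.12 in H2009, and 0.16 in H460 and -0.07 in A549.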

How the data were processed

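Total RNA of 24 stably transduced cultures was measured on Affymetrix human gene arrays. The log2 values analysed, 1 per transcript cluster, are the ones the authors deposited. They were made by RMA in Affymetrix Power Tools, with background correction, quantile normalization, which narrows differences in overall level between arrays, and probe summarization. No source used here gives the versions. Array medians lay between 4.78 and 4.91. Of 33252 clusters, 19460 have 1 gene symbol, while the 12038 without a symbol and the 1754 with more than 1 are not analysed here. Where a gene had more than 1 cluster (769 genes), the brightest by mean over all arrays stood for it.

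A model with 1 coefficient for each of the 8 groups was fitted on all 18417 genes with limma 3.58.1 in R 4.3.3, whose spread is shared by all arrays, with Benjamini-Hochberg adjustment across these genes. Intervals are 95% and not adjusted. The methods' own t-test within each line was run as an alternative, beside other normalizations, filters, fold thresholds, the replicate block and the omission of each single array. After the values were seen, array weights and the mean change over the 4 lines were added. The fitting was tested on simulated data.

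The members and lists were chosen with earlier results of these data known. The genes named are PRKCD, the 6 members, up to 3 called genes with the largest change per list and line, and the 3 genes with the highest correlation to each member, and the values of SRC in H2009 and of FBN1 and LTBP3 in H441 were added as further calls of genes so named. ITGA1, FLNA and 1 further gene were listed but are not analysed here. The listed symbol ICAP1 is another name of ITGB1BP1, which was listed and measured. The number of arrays limits the precision.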

Additional observations from a re-analysis of the deposited data

Results flagged for a closer look

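The results below are those in which the change with δ193 differed between lines or classes by a test of the difference itself (limma, adjusted over all genes). Each is the change in the line named first minus that in the line named second, on the log2 scale. For ITGAV, the dependent lines differed from the independent ones by -0.36 (adjusted p = 0.0117), and H441 from A549 by -0.73 (adjusted p = 0.000253). For ITGB5, H2009 differed from H441 by 0.82 (adjusted p = 0.000521) and from H460 by 0.62 (adjusted p = 0.00911), H441 from A549 by -0.71 (adjusted p = 0.00165), and A549 from H460 by 0.51 (adjusted p = 0.033). For ITGB6, A549 stood apart from H2009 (0.84, H2009 minus A549, adjusted p = 0.045), H441 (1.01, H441 minus A549, adjusted p = 0.00673) and H460 (-0.95, A549 minus H460, adjusted p = 0.017). For ITGB8, H2009 differed from H441 by 0.79 (adjusted p = 0.0107), from A549 by 0.73 (adjusted p = 0.0281) and from H460 by 0.74 (adjusted p = 0.0215), with all group means between 3.68 and 4.27. ITGB6 lay below the level of presumed silent genes in H441 and H460 with either shRNA. With 1 array left out, the ITGB6 difference of H2009 from A549 was lost in 14 of 24 fits and the ITGB5 difference of A549 from H460 in 9 of 24. Groups of 3 were not searched for single outlying values, but array weights, fitted over all genes, were 2.28, 0.23 and 0.16 for δ193 replicates 1, 2 and 3 of H441.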

How the results depend on the processing

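No called result changed direction under any alternative. Of the members, 4 were called in H441, 2 in H2009 and 2 in H460, and 1 in A549. With the methods' t-test and Benjamini-Hochberg adjustment the counts were 0 in H441 and A549 and 1 in H2009 and H460, with ITGAV called in no line. Unadjusted, 2 were called in A549. At a fold of at least 1.5 they were 1 in H2009 and 0 in H460. With only genes above the median level, which leaves out ITGB3, ITGB6 and ITGB8, they were 1 in H2009, 2 in H441 and 0 in A549, with 2 members whose change differed among lines (4 in the fit reported) and 16 differences between δscr lines (27 in the fit reported). With each line fitted alone, 2 were called in H441 and 2 in A549. With array weights 2 were called in A549 and 3 in H2009, where ITGB8 was called higher, and the class differences of ITGB3 (-0.37, adjusted p = 0.0262), ITGB6 (0.47, adjusted p = 0.0336) and ITGB8 (0.41, adjusted p = 0.0389) passed.

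The sample labels give replicate numbers but do not say whether same-numbered arrays are paired, and this was not tested. Same-numbered arrays deviated together at correlations of -0.09 to 0.28, and 2 of 12 exceeded 0.1. These 2 were replicates 1 and 2 of H2009 (0.28 and 0.16), and replicate 3 of that line gave 0.095. With the replicate block, 2 members were called in A549, the class differences of ITGB3 (-0.44, adjusted p = 0.0317) and ITGB6 (0.45, adjusted p = 0.0446) passed, and the ITGB8 differences of H2009 from A549 and H460 did not pass (adjusted p of 0.0623 and 0.0522). The block within lines could not be fitted to differences between δscr lines and was not run there.

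With 1 array left out, the count in A549 ranged between 1 and 2, being 2 without A549 δscr replicate 2, H441 δ193 replicate 2 or H441 δ193 replicate 3. The class difference of ITGB3 ranged between -0.56 and -0.29, and that of ITGAV between -0.41 and -0.33 and passed every time. The members whose change differed among lines then numbered 4 to 5, and the differences between δscr lines 25 to 28. ITGB8 in all lines and ITGB6 in H441 and H460 lay near or below the level of presumed silent genes, so that changes there are the least certain.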
